A study of Mus musculus with 6 samples.

Results

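The immunoglobulin genes expressed in mouse liver were followed from mouse to mouse in RNA sequencing of whole liver. Members were chosen by name and by a value above 0. TPM (a level corrected for transcript length that the authors scaled to a total of 1000000 in each liver) were added up for each gene symbol, and a symbol was taken when it named an immunoglobulin variable (V), diversity (D) or constant gene and had a TPM above 0 in any mouse. Of 35540 gene symbols in the table, 374 matched the name rule, and 171 of them were above 0 in at least 1 of 6 mice. The symbol Ighmbp2 matches by its spelling only, since it names a helicase and not an antibody gene, and with it set apart there were 170 members. The livers came from 3 Alb-Cre+ mice and 3 Alb-Cre- littermates, the latter called controls. All 6 mice were Surf4 fl/fl, with both Surf4 alleles floxed, on a C57BL/6J background, and in Alb-Cre+ mice Cre driven by the Albumin promoter removes Surf4 exon 2 in hepatocytes, so the B lineage cells that make antibodies are not the target of the deletion. In both genotypes replicate 2 was female and replicates 1 and 3 were male, so sex and replicate number 2 cannot be told apart, and the ages of these mice are not given in the sources used here.

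Antibodies are pairs of heavy and light chains made by B cells and, in far larger amounts, by plasma cells. Each B cell joins a single V segment to short D and J segments for its heavy chain, and a single V to a J segment for its light chain, and its descendants keep that choice, so the mixture of V transcripts in a tissue reflects which clones are there. The constant gene that follows sets the class: Ighm for IgM, Ighd for IgD, the Ighg genes for IgG, Igha for IgA and Ighe for IgE, with Igkc for kappa and the Iglc genes for lambda light chains. Liver holds few B lineage cells beside hepatocytes, and in bulk tissue fewer such cells and less RNA per cell cannot be told apart.

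The libraries matched their labels. Surf4, the targeted gene, was at 92.5, 94.5 and 92.5 TPM in control replicates 1, 2 and 3 and at 59.0, 71.8 and 54.3 TPM in Alb-Cre+ replicates 1, 2 and 3. The Y-linked gene Ddx3y was at 0 TPM in both female livers and between 19.3 and 22.3 TPM in the male livers. Between 10059 and 11125 genes per liver reached 1 TPM. TPM keep no number of reads, so sequencing depth is not known and counting error cannot be stated. Below, values of 3 replicates are given in the order 1, 2, 3.

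Most immunoglobulin gene symbols that could be expressed were seen in at least 1 liver, but few V segments were seen in every liver. Among V symbols, 77 of 183 Ighv (heavy chain), 77 of 160 Igkv (kappa) and all 3 Iglv (lambda) were above 0. The 8 heavy chain constant genes, Igkc and the 4 Iglc genes were all above 0. The 14 D segment symbols were listed at 0 in every mouse, and whether reads can be assigned to such short segments was not tested. In the GRCm38 annotation (GENCODE M21) the heavy chain V genes span chr12:113572927-116010093, the kappa V genes chr6:67555497-70704177 and the lambda V genes chr16:19085017-19260859. The V symbols above 0 were all annotated as functional V genes, 77 of 113 such genes for Ighv and 77 of 100 for Igkv, while 0 of 69 Ighv and 0 of 60 Igkv pseudogenes were above 0. The members nearest the limit had a highest TPM of 0.0239 for Ighe, 0.0740 for Ighv2-5 and 0.0769 for Ighv5-9, and every symbol left out was listed at 0 in all 6 mice.

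Which V segments were detected changed between mice. Of the 157 V members, 49 (31.2%) were above 0 in a single mouse and 5 (3.18%) in all 6. Among all 21151 genes above 0 in any mouse, 9.57% were above 0 in a single mouse and 73.0% in all 6. Those genes include far more abundant ones and were matched to the V members neither by level nor by length. The part that low level and short length play in these shares was not tested. The 5 V segments found in every liver were 4 Igkv segments and Iglv1, and no Ighv segment was among them. Of the 49 segments seen in a single mouse, 19 were found in the female control and 18 in the female Alb-Cre+ mouse, and 0 in Alb-Cre+ replicate 3. Among the 13 constant genes, 9 were above 0 in all 6 livers.

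The summed level of all members rose and fell with the replicate number and in the same order in both genotypes. It was 48.0, 109 and 20.7 TPM in the controls and 55.3, 84.7 and 17.8 TPM in the Alb-Cre+ mice. The female liver was the highest of its genotype and the replicate 3 male the lowest, and the genotypes overlapped between 20.7 and 84.7 TPM, with the highest liver a control and the lowest an Alb-Cre+ mouse. The number of V segments above 0 followed the same order, with 69, 110 and 36 in the controls and 72, 94 and 40 in the Alb-Cre+ mice. Summed Igkv segments were at 14.8, 33.7 and 5.82 TPM in the controls and at 15.1, 23.2 and 6.39 TPM in the Alb-Cre+ mice. Summed Ighv segments were at 8.33, 23.3 and 4.05 TPM in the controls and at 10.5, 18.2 and 3.57 TPM in the Alb-Cre+ mice. The highest liver exceeded the lowest by 6.13 times for the sum of all members, and by 4.81 times after scaling the livers to each other by the median ratio over genes (median of ratios).

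**Figure D1:**
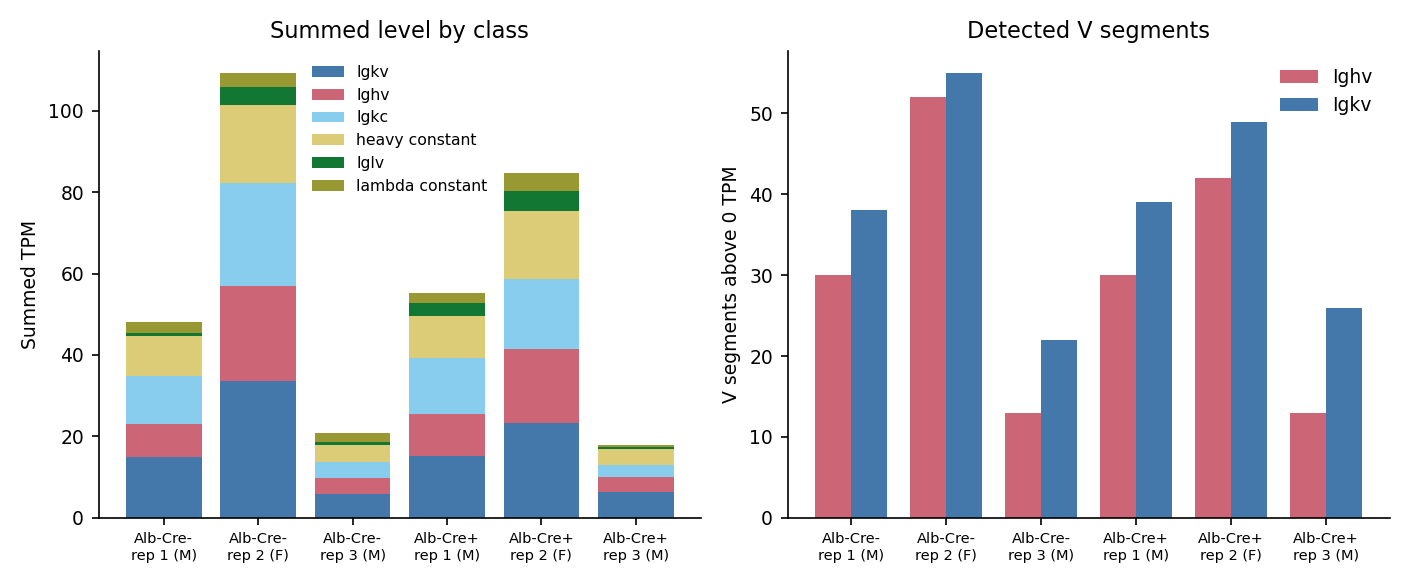
Left, summed TPM of the immunoglobulin genes in each liver, stacked by class; right, number of Ighv and Igkv segments above 0 TPM in each liver (M, male; F, female). Totals run from 17.8 TPM in Alb-Cre+ replicate 3 to 109 TPM in control replicate 2, and in both genotypes the female liver has the most segments and the replicate 3 male the fewest.

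Igkc, the constant gene of the kappa light chain, was the most abundant member in every liver. It was at 11.8, 25.2 and 3.93 TPM in the controls and at 13.6, 17.4 and 3.09 TPM in the Alb-Cre+ mice, which is 8.14 times between the highest and the lowest liver. The 2 lowest livers were both replicate 3 males and the 2 highest both females. Among the lambda constant genes, Iglc1 was at 0.743, 1.54 and 1.15 TPM in the controls and at 1.69 and 2.32 TPM in Alb-Cre+ replicates 1 and 2, and was listed at 0 in Alb-Cre+ replicate 3. Iglc2 was at 0.749, 1.43 and 0.669 TPM in the controls and at 0.811, 1.19 and 0.310 TPM in the Alb-Cre+ mice. Iglc3 was at 0.748, 0.586 and 0.166 TPM in the controls and at 0.0897, 0.922 and 0.245 TPM in the Alb-Cre+ mice, with no common order of the mice. Iglc4 was above 0 only in control replicate 1, at 0.350 TPM. Lambda constant genes made up between 12.4% and 33.6% of the light chain constant TPM of a liver.

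Among the heavy chain constant genes, Ighm and Ighd varied least and the genes of switched classes varied most. Ighm, which encodes IgM, was at 4.81, 4.93 and 1.80 TPM in the controls and at 4.08, 5.23 and 1.91 TPM in the Alb-Cre+ mice, a range of 2.90 times. Ighd, the marker of mature naive B cells, was at 0.726, 0.719 and 0.322 TPM in the controls and at 0.751, 0.732 and 0.505 TPM in the Alb-Cre+ mice, a range of 2.33 times. For both genes the replicate 3 males were lowest, and the replicate 1 males lay close to the females. Igha, which encodes IgA, was at 2.89, 7.75 and 0.948 TPM in the controls and at 3.49, 6.37 and 0.712 TPM in the Alb-Cre+ mice, a range of 10.9 times. Ighg2b was at 0.769, 3.27 and 0.721 TPM in the controls and at 1.33, 2.11 and 0.384 TPM in the Alb-Cre+ mice. Ighg1 was at 0.193, 1.73 and 0.0835 TPM in the controls and at 0.312, 1.09 and 0.209 TPM in the Alb-Cre+ mice, a range of 20.7 times. Every female value lay above every male value for Igha, Ighg1 and Ighg2b. Ighg2c lay between 0.141 and 0.691 TPM and Ighg3 between 0 and 0.509 TPM, also with both females highest. Ighe, for IgE, reached 0.0239 TPM at most.

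**Figure D2:**
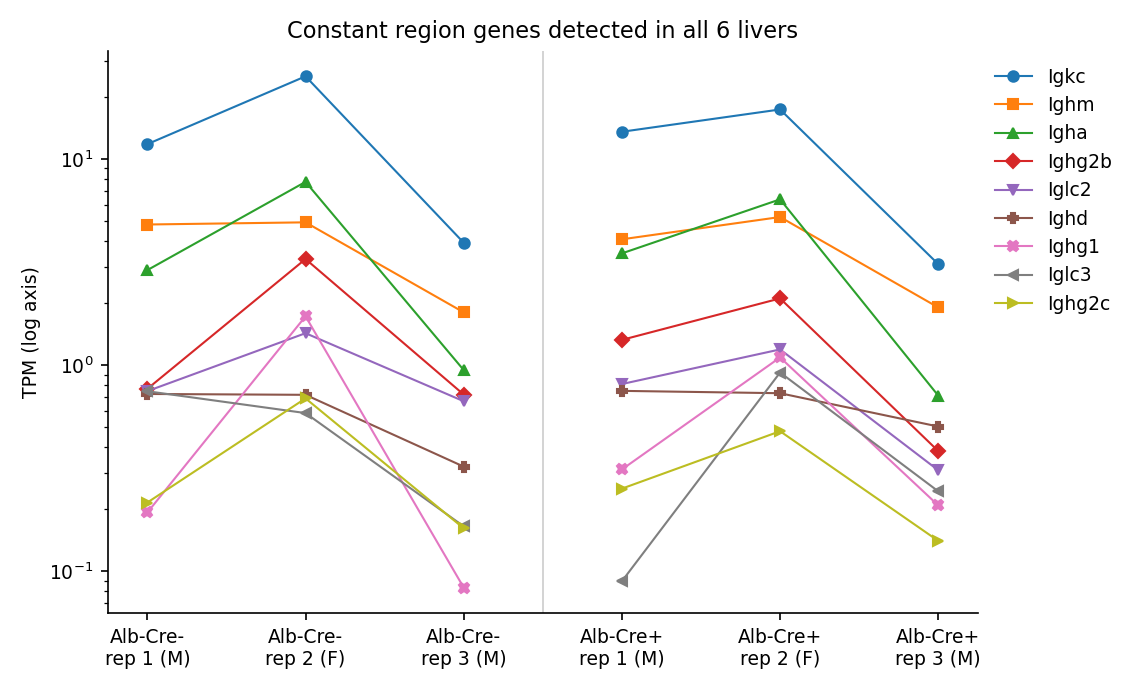
TPM (log axis) of the 9 constant genes above 0 in every liver; each marker is 1 liver, and lines join replicates of the same genotype to guide the eye only. Igkc leads in every liver, and Ighm and Ighd change less between livers than Igha and Ighg1.

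The mixture of antibody classes differed between livers. IgM held 49.8%, 25.5% and 44.7% of the heavy chain constant TPM in the controls and 39.3%, 31.6% and 49.0% in the Alb-Cre+ mice. IgA held 29.9%, 40.0% and 23.4% in the controls and 33.6%, 38.5% and 18.3% in the Alb-Cre+ mice. The 4 IgG genes together held between 12.8% and 30.8%. Both female livers had the lowest IgM shares and the highest IgA shares of the 6, while the means of the genotypes were close, with 40.0% ± 12.8 IgM in the controls and 40.0% ± 8.73 in the Alb-Cre+ mice (SD, n = 3).

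Heavy chain genes make a secreted and a membrane transcript, and the membrane form carries added exons. For Igha and the Ighg genes the transcript with the fewest exons held between 97.8% and 99.7% of the gene's TPM over all mice. For Ighd all TPM were assigned to the transcript with more exons. Ighm was split. Its transcript with 4 exons was at 2.50, 2.47 and 0.526 TPM in the controls and at 2.04, 2.98 and 0.603 TPM in the Alb-Cre+ mice, a range of 5.66 times. Its transcript with 6 exons was at 2.31, 2.47 and 1.28 TPM in the controls and at 2.04, 2.26 and 1.30 TPM in the Alb-Cre+ mice, a range of 1.93 times. The 2 forms share most of their sequence, so how reads were divided between them depends on the authors' quantifier.

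The V and constant levels of a liver kept a narrow ratio. Summed Ighv TPM were between 0.861 and 1.20 times the summed heavy chain constant TPM. Summed Igkv TPM were between 1.12 and 2.07 times Igkc, with the highest ratio in Alb-Cre+ replicate 3.

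The V segments that led a liver changed from mouse to mouse. Over the 6 livers there were 6 different leading Igkv segments and 4 different leading Ighv segments. Among Igkv segments, the leader in the controls was Igkv6-32 at 1.97 TPM, Igkv1-110 at 2.51 TPM and Igkv19-93 at 1.31 TPM. In the Alb-Cre+ mice it was Igkv6-23 at 1.14 TPM, Igkv10-94 at 2.00 TPM and Igkv10-96 at 1.33 TPM. Only Igkv10-96 was among the first 3 in more than 2 livers, and it was listed at 0 in control replicate 3. Among Ighv segments, the leader in the controls was Ighv10-1 at 0.827 TPM and then Ighv9-3 at 2.09 and 1.13 TPM. In the Alb-Cre+ mice it was Ighv8-8 at 0.916 TPM, Ighv1-76 at 1.67 TPM and Ighv8-8 again at 0.805 TPM. Ighv1-76 was listed at 0 in all 3 controls, and Ighv9-3 was listed at 0 in Alb-Cre+ replicate 3 although it led 2 of the controls.

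**Figure D3:**
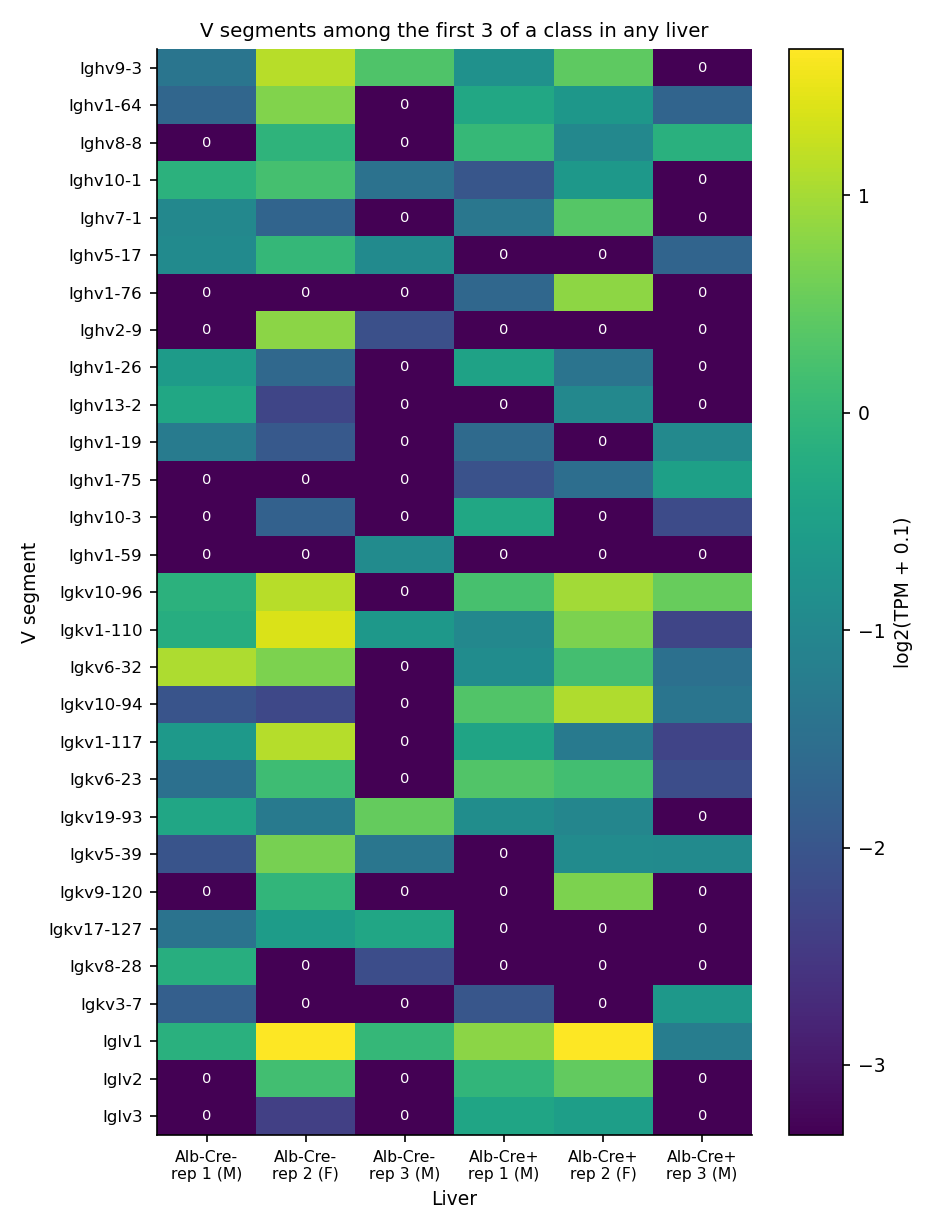
Colour shows log2(TPM + 0.1) of the 29 V segments that were among the first 3 of their class in at least 1 liver, ordered by summed TPM within class, with 0 marking livers at 0 TPM. Iglv1 is filled in every liver, while most Ighv and Igkv segments are at 0 in some livers and high in others.

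The coding sequence of Ighv9-3, the most abundant heavy chain V segment over all livers, is shown by the first 300 of its 351 bases from the annotated transcript (GRCm38, chr12:114140743-114141122, minus strand, an intron left out). Capitals mark the leader exon, whose peptide directs the chain into the ER, and lower case the V exon.
Ighv9-3: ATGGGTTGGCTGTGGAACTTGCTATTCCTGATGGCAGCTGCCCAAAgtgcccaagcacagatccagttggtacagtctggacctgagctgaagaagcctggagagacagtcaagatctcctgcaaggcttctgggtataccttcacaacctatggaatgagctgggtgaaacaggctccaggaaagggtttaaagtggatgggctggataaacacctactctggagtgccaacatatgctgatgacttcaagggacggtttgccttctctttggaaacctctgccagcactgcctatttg

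Igkv10-94 and Igkv10-96 are near copies, and their levels are given side by side, with the difference between them not tested. Igkv10-94 was at 0.147, 0.112 and 0 TPM in the controls and at 1.14, 2.00 and 0.284 TPM in the Alb-Cre+ mice, so that its genotypes did not overlap. Igkv10-96 was at 0.827, 2.11 and 0 TPM in the controls and at 1.06, 1.87 and 1.33 TPM in the Alb-Cre+ mice, with overlapping genotypes. Their coding sequences of 347 bases each were 95.4% identical and differed at 16 positions. The first 300 bases are shown to let the pair be compared (GRCm38, minus strand, chr6:68704555-68704978 for Igkv10-94 and chr6:68632010-68632430 for Igkv10-96), with the 9 differences in this stretch in capitals.
Igkv10-94: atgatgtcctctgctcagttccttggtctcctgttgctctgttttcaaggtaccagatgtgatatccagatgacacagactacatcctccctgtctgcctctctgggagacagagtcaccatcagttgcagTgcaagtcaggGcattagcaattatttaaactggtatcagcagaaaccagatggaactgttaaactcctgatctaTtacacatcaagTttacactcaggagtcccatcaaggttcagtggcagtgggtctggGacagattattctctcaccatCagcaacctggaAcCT
Igkv10-96: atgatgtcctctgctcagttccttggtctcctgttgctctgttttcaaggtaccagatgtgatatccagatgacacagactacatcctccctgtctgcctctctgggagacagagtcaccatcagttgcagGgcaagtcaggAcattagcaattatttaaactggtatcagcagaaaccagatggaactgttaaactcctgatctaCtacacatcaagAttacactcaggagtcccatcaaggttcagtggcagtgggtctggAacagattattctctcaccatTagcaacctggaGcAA
Of the 31-base stretches in the Igkv10-94 transcript, 66.6% also occur in another annotated gene, against 48.0% for Igkv10-96, so part of the reads from these segments could have been assigned to either.

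Lambda V segments were the exception to the change of leader. Iglv1 led its class in all 6 livers, at 0.804, 3.09 and 0.900 TPM in the controls and at 1.64, 3.06 and 0.335 TPM in the Alb-Cre+ mice. Iglv2 was listed at 0 in control replicates 1 and 3 and in Alb-Cre+ replicate 3, and was at 1.01, 0.875 and 1.30 TPM in the other livers. Iglv3 reached 0.661 TPM at most and was at 0 in the same 3 livers as Iglv2. The coding sequences of Iglv1 and Iglv2 have 351 bases and were 96.9% identical, with 11 differing positions. The first 300 bases of the leader and of the segment next to it in level are shown (GRCm38, minus strand, chr16:19085068-19085460 for Iglv1 and chr16:19260452-19260844 for Iglv2), with the 8 differences in this stretch in capitals.
Iglv1: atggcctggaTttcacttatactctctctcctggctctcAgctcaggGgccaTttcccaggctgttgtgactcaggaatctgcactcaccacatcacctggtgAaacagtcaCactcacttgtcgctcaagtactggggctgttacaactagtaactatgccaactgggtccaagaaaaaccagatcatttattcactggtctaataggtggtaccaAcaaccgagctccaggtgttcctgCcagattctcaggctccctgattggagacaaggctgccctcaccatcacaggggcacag
Iglv2: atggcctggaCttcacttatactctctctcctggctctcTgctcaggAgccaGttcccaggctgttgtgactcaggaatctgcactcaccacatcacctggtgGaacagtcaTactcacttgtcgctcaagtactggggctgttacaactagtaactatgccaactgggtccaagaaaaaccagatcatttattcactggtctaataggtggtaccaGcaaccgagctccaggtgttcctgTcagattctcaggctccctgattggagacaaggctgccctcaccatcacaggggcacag

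In livers with a low summed level a few segments held a large share of the V transcripts. The leading Igkv segment held 13.3%, 7.46% and 22.5% of the Igkv TPM in the controls and 7.53%, 8.63% and 20.8% in the Alb-Cre+ mice. The leading Ighv segment held 9.93%, 8.98% and 27.9% of the Ighv TPM in the controls and 8.75%, 9.18% and 22.6% in the Alb-Cre+ mice. The first 5 Ighv segments together held 64.6% and 66.9% in the replicate 3 males against 31.9% to 35.4% in the other 4 livers. Fewer segments were above 0 in those livers, 13 Ighv in each replicate 3 male, so share and number of segments were not independent. Counted only among the 8 Ighv and 15 Igkv segments that reached 1 TPM in some liver, the leading segment held 22.6% to 100% of the Ighv TPM and 13.7% to 51.6% of the Igkv TPM.

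**Figure D4:**
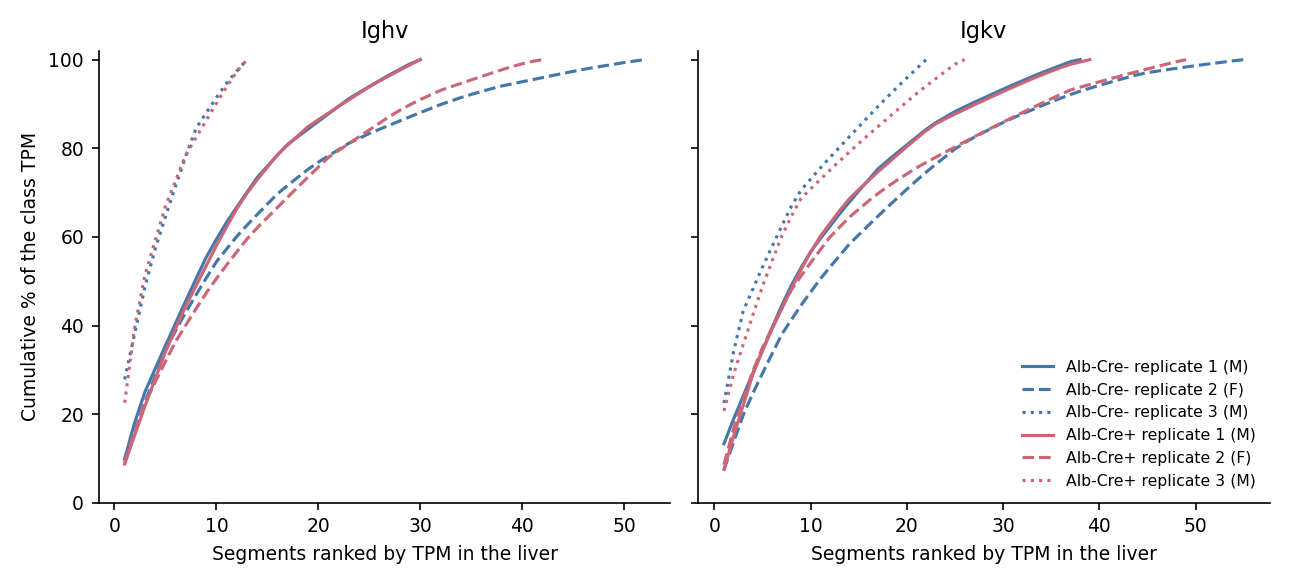
Cumulative percent of the Ighv (left) and Igkv (right) TPM of a liver against segments ranked by TPM in that liver; colour gives genotype and line style the replicate. The dotted curves of the replicate 3 males rise fastest and end at 13 Ighv segments, while the dashed curves of the females reach 52 and 42.

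The livers were also compared by which segments they held. Across the 157 V members, which are not independent replicates and share the libraries' depth, the rank correlation between 2 livers ranged from 0.00466 to 0.354 over 15 pairs. It was 0.290, 0.354 and 0.00466 for the pairs with the same replicate number and between 0.0491 and 0.347 for the others. The 2 replicate 3 males shared 9 segments, 25.0% of the 36 in the control and 22.5% of the 40 in the Alb-Cre+ mouse. The numbers detected in each, if unrelated over the 157 members, would give 9.17. Members are above 0 in some liver by rule, so such a number is higher than one taken over all V symbols. Closeness to it thus does not show that 2 livers are unrelated. The 2 females shared 68 segments, 61.8% of the 110 in the control and 72.3% of the 94 in the Alb-Cre+ mouse, where the numbers detected would give 65.9. The counts for these 2 pairs were close to what the numbers detected give. So were some others, such as 17 against 16.5 for control replicate 3 and Alb-Cre+ replicate 1. Other pairs shared more. The 2 replicate 1 males shared 42 segments, where the numbers detected would give 31.6. Alb-Cre+ replicates 1 and 3 shared 29, where they would give 18.3. Apart from the replicate 3 males, only control replicate 3 and Alb-Cre+ replicate 2 shared fewer than these numbers give, 21 against 21.6.

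By family, Ighv1, the largest heavy chain family of the mouse, held between 31.3% and 53.0% of the Ighv TPM of a liver, with 36 of its 92 listed symbols above 0. The 4 Ighv9 segments held 3.43%, 11.8% and 27.9% of the Ighv TPM in the controls and 4.54%, 11.5% and 0% in the Alb-Cre+ mice. Igkv4 held 24.6%, 16.0% and 5.81% of the Igkv TPM in the controls and 11.9%, 14.4% and 6.14% in the Alb-Cre+ mice. Igkv10 held 6.57%, 6.59% and 0% in the controls and 14.5%, 16.7% and 25.2% in the Alb-Cre+ mice. Along the locus, the functional Igkv genes were split by position into 3 parts of about equal number, and the 33 genes farthest from Igkc held between 37.1% and 59.1% of the Igkv TPM, more than either other part in every liver. For Ighv no part of the locus led in all livers, and the 38 genes nearest the constant genes held between 13.5% and 58.5%.

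The spread between mice of the same genotype was larger for the members than for other genes at the same level. Both genotypes mix a female with males, so this spread includes any difference between the sexes. The V members have 338 to 394 coding bases, and at equal TPM a short transcript rests on fewer reads than a long one. Genes matched by TPM are thus not matched by reads, and the part of counting error in the spread was not tested. Of the 170 members, 98 had a mean of at least 0.1 TPM and entered the fit across genes (87 V segments and 11 constant genes), and the 72 others reached 0.582 TPM at most in a liver. For 32 of the 98, the mean over the other 5 mice without the highest was under 0.1 TPM, so they passed through a single liver. On log2(TPM + 0.1), the median SD within genotype was 1.23 for the members and 0.327 for all 14189 genes tested, which include far more abundant genes. At means of 0.1 to 1 TPM it was 1.23 for the 91 members and 0.538 for the 3554 genes. At means of 1 to 15 TPM it was 1.33 for the 7 members and 0.322 for the 6611 genes. Values at 0 enter here too, since Igkv10-96 was at 0 in control replicate 3 and Iglc1 in Alb-Cre+ replicate 3. With a pseudocount of 1 TPM the medians were 0.330 and 0.218. The highest liver held a median of 49.0% of a member's summed TPM at means of 0.1 to 1 TPM, against 28.9% for all genes there, and 31.4% against 22.1% at means of 1 to 15 TPM.

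The V levels themselves rested on few steps. Among V transcripts of equal length in the same liver, 128 of 150 values (85.3%) lay within 0.05 of a whole multiple of the lowest such value. In control replicate 1, the 8 transcripts of 351 bases were at 1, 1, 1, 1, 1, 2, 3 and 4 times the lowest value of 0.143 TPM, the last 2 being Ighv1-53 and Ighv1-26. In Alb-Cre+ replicate 3 the 4 such transcripts lay at 1 to 2 times 0.139 TPM. The lowest V level above 0 was between 0.0653 and 0.104 TPM in every liver, so most V segments lay within a few steps of 0, and a segment listed at 0 was not detected at this depth rather than shown to be absent.

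For the question the study's design asks, whether the livers of Alb-Cre+ mice differ from those of controls, no immunoglobulin gene passed the test. Genes were compared by limma on log2(TPM + 0.1) with Benjamini-Hochberg adjustment over all 14189 genes and a threshold of 0.01. Called were 0.00% of all genes and 0 of 98 members. This fit had little power to call a gene. Surf4, the deleted gene, was not called either (log2 difference -0.60, SE 0.13, unadjusted p = 0.00269, limma). Of 100 genes given a simulated log2 difference of size 1, 4 were called, and of 100 others given size 2, 32 were called. These genes were drawn from all genes tested, each with its own SD. The members had a larger median SD within genotype (1.23 against 0.327), so these numbers do not give the power for the members. The paper's own comparison did report changed genes. The absence of calls is thus not evidence that the members were unchanged. At an unadjusted p under 0.05, 3 members were higher in Alb-Cre+ mice (0.803% of all genes were) and 2 were lower (0.958% of all genes). Igkc was at 13.6 ± 10.7 TPM in the controls and 11.3 ± 7.40 TPM in the Alb-Cre+ mice (SD, n = 3), a log2 difference of -0.22 (SE 0.83, 95% interval -2.17 to 1.73, adjusted p = 1.00 from limma). Igha differed by -0.13 (SE 0.94) and Ighm by -0.02 (SE 0.50), with 95% intervals of -2.35 to 2.09 and -1.21 to 1.17. Leaving out single mice turned the direction of all 3 genes: Igkc moved to 0.54 without Alb-Cre+ replicate 3, to 0.40 without control replicate 2 and to -0.93 without control replicate 3. Igha moved to 0.73 and Ighm to 0.39 without Alb-Cre+ replicate 3. Blocking on replicate number gave smaller SEs, with 95% intervals of -0.67 to 0.22 for Igkc, -0.63 to 0.38 for Igha and -0.44 to 0.39 for Ighm. Leaving out a mouse without the block also breaks up a same-numbered pair.

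The 5 members below an unadjusted p of 0.05 were all V segments, and 4 of them were at 0 in 2 or more mice of a group. Igkv17-127 was at 0.276, 0.580 and 0.675 TPM in the controls and was listed at 0 in all 3 Alb-Cre+ mice (unadjusted p = 2.96e-04, adjusted p = 0.607, limma). Ighv1-75 and Igkv16-104 went the other way, listed at 0 in all 3 controls and at 0.139, 0.249 and 0.616 TPM and at 0.810, 0.244 and 0.120 TPM in the Alb-Cre+ mice. Ighv5-17 was at 0.426, 0.900 and 0.421 TPM in the controls and at 0, 0 and 0.206 TPM in the Alb-Cre+ mice. Igkv10-94, described above, differed by 2.52 (SE 0.68, adjusted p = 1.00, limma). Next in order came Igkv12-41, Igkv4-57-1 and Ighv10-1 among the lower members and Ighv1-9 and Igkv5-43 among the higher ones. Of the 98 members, 4 were at 0 in all Alb-Cre+ mice and 4 in all controls, and such a segment entered the fit only through the group where it was high. All Alb-Cre+ values lay above all control values in 3 of 98 members (2.18% of all genes tested) and below them in 3 (2.71% of all genes). After median of ratios these counts were 4 (2.78% of all genes) and 3 (2.89% of all genes). With the replicate number as a block, 0 members were called, and 8 members were higher and 7 lower at an unadjusted p under 0.05, where 2.28% and 2.42% of all genes were.

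Igkv17-127, the segment listed at 0 throughout the Alb-Cre+ mice, is printed because it had the smallest p of the members (the first 300 of 353 coding bases, GRCm38, chr6:67861159-67861606, plus strand, leader exon in capitals). Its nearest relative among the members, Igkv17-121, was 97.5% identical in coding sequence, and 67.2% of the 31-base stretches of Igkv17-127 occur in another annotated gene.
Igkv17-127: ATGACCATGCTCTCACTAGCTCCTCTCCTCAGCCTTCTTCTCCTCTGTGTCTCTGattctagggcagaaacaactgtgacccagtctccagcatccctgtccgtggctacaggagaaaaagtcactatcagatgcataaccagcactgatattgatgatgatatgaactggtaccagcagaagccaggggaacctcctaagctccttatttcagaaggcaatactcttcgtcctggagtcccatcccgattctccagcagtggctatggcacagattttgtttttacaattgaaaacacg

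The livers of females and males were compared next. The comparison of the sexes, with genotype as a covariate, was added after the values had been seen and rests on 2 females, both replicate 2, against 4 males. At an unadjusted p under 0.05, 34 of 98 members were higher in the females, where 25.6% of all genes were, and 0 were lower, where 3.11% of all genes were. The 34 include 4 segments at 0 in all 4 males, which entered the fit only through the females and had to differ. In the genotype fit of the same form, with sex as a covariate, 7 members were higher and 5 lower at that p. Of all genes, 1.83% were higher and 1.91% lower in that fit. Most genes were higher in the females on the deposited scale, with a median log2 difference of 0.26 over all genes. After median of ratios that median was -0.01, the share of higher genes among those with an unadjusted p under 0.05 went from 89.2% to 47.9%, and 27 of 97 members were higher against 13.2% of all genes. The median of the members was 1.23 as deposited and 1.07 after median of ratios.

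The constant genes showed the size of these differences. Igha was at 7.06 ± 0.971 TPM in the females (SD, n = 2) and 2.01 ± 1.39 TPM in the males (SD, n = 4), a log2 difference of 2.04 (SE 0.65, adjusted p = 0.106, limma). Ighg1 differed by 2.36 (SE 0.40, adjusted p = 0.0249), Ighg2b by 1.70 (SE 0.45), Igkc by 1.64 (SE 0.64, adjusted p = 0.156) and Ighg2c by 1.23 (SE 0.32) in the same limma fit. Ighm differed by 0.80 (SE 0.45) and Ighd by 0.34 (SE 0.36), with adjusted p of 0.283 and 0.560 from limma. None of the constant genes passed the threshold of 0.01. Both females lay above all 4 males in 8 of 11 constant genes and in 33 of 98 members, beside 36.6% of all genes tested. After median of ratios this held for 26 of 98 members, beside 18.7% of all genes, and both females lay below all males in 0 members, beside 20.9% of all genes (0 members and 5.00% of all genes as deposited).

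Igkv9-120 was the only member called between the sexes (adjusted p = 0.00615, limma), and 0.514% of all genes were called. It was at 0.870 TPM in the female control and 1.52 TPM in the female Alb-Cre+ mouse and was listed at 0 in all 4 males. It entered the fit only through the females, and the zeros of the males carry no spread, so the call is a description of these livers. It was lost whenever a single mouse was left out and with a pseudocount of 0.01 TPM. Ighv1-52 and Ighv9-1 had the same pattern at lower levels, 0.660 and 0.440 TPM in the female control and 0.419 TPM each in the female Alb-Cre+ mouse. The coding sequence of Igkv9-120 has 353 bases, of which the first 300 are shown with the leader exon in capitals (GRCm38, chr6:68049983-68050403, plus strand).
Igkv9-120: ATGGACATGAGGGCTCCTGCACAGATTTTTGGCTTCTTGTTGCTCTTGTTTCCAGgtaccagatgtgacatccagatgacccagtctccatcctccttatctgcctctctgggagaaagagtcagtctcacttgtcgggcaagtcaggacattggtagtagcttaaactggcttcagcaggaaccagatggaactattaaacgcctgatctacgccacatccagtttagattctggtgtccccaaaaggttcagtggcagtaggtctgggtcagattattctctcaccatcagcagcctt

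**Figure D5:**
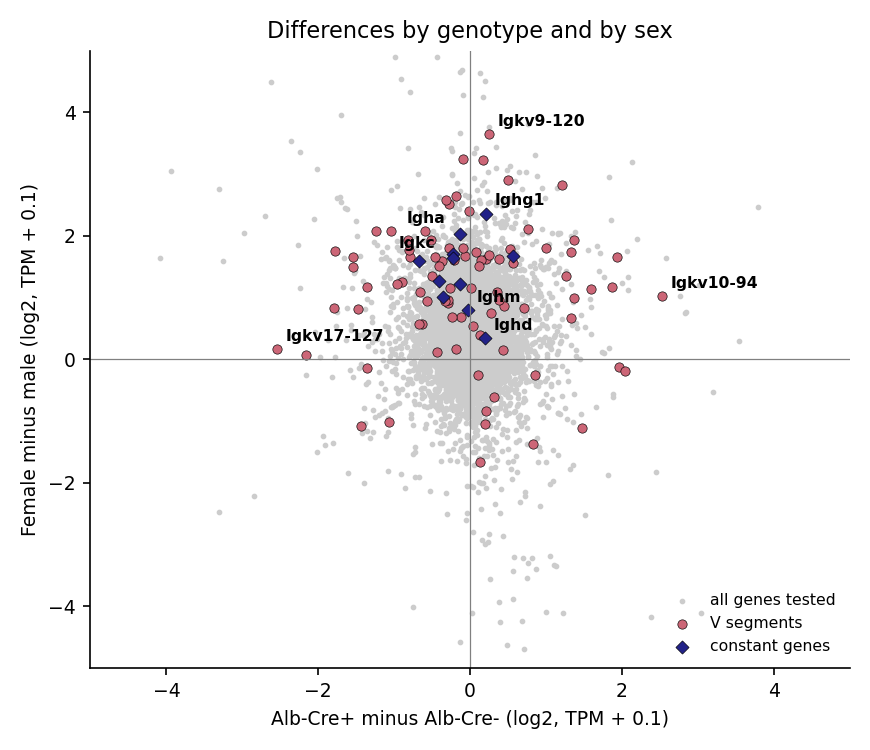
Log2 difference between genotypes (horizontal) and between sexes (vertical) on log2(TPM + 0.1) for all 14189 genes tested (grey) and the 98 members (colour); 33 genes, none of them a member, lie outside the axes at 5. Constant genes lie near 0 on the horizontal axis and above 0 on the vertical one, with Igkv9-120 highest among the members.

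The male livers also differed by replicate number. Replicate 3 was lower than replicate 1 by 1.83 on the log2 scale for Igkc (log2 difference -1.83, SE 0.22, unadjusted p = 2.6e-04, adjusted p = 0.108, limma), with the order the same in both genotypes. Igha differed by -1.83 (SE 0.25), Ighm by -1.21 (SE 0.20) and Ighd by -0.73 (SE 0.30). At an unadjusted p under 0.05, 17 members were lower and 3 higher in replicate 3, where 7.79% and 1.33% of all genes were, and no member was called, beside 0.0211% of all genes. The median difference was -0.92 for the members and -0.13 for all genes. Both replicate 3 males lay below both replicate 1 males in 35 of 98 members, beside 36.8% of all genes, and after median of ratios in 27 of 98, beside 21.3% of all genes. Both lay above in 3 members, beside 8.86% of all genes, and after median of ratios also in 3, beside 23.3%. What the replicate numbers stand for is not given in the sources used here.

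Markers of other blood and immune cells also differed between the livers, not all in the order of the immunoglobulin genes. Kupffer cell markers summed to 176, 424 and 158 TPM in the controls and 181, 461 and 116 TPM in the Alb-Cre+ mice. Both females lay above all males in 6 of 6 of these genes, beside 36.6% of all genes tested. Neutrophil markers summed to 34.5, 145 and 23.5 TPM in the controls and 42.2, 298 and 53.7 TPM in the Alb-Cre+ mice, so replicate 3 was not the lowest Alb-Cre+ mouse. T cell markers summed to between 3.57 and 9.85 TPM, both females highest. Red blood cell markers summed to 262, 103 and 408 TPM in the controls and 308, 131 and 172 TPM in the Alb-Cre+ mice, so they were lowest in the females. At an unadjusted p under 0.05, 5 of 5 of these genes were lower in females, where 3.11% of all genes were. Hepatocyte markers summed to between 60774 and 90976 TPM, and 3 of 5 pancreas genes (Prss2, Cpa1 and Pnlip) were listed at 0 in every liver. The part of these cells in the immunoglobulin differences was not tested.

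B cell markers were low, and within each genotype their summed level had the order of the immunoglobulin sum, with a smaller range. The 12 B cell markers summed to 4.24, 6.52 and 2.94 TPM in the controls and 4.31, 6.59 and 3.49 TPM in the Alb-Cre+ mice. Cd79b, part of the B cell receptor, was at 1.28, 2.62 and 1.04 TPM in the controls and at 1.52, 2.62 and 1.33 TPM in the Alb-Cre+ mice. Both females lay above all males in 6 of the 12 B cell markers, beside 36.6% of all genes tested, and 4 of the 12 averaged under 0.1 TPM. Others had another order, such as Cd79a, the partner of Cd79b, at 0.857, 1.43 and 0.578 TPM in the controls and 1.02, 0.628 and 0.498 TPM in the Alb-Cre+ mice. Ms4a1 was highest in control replicate 1, at 0.294 TPM, and Fcer2a had a female minus male log2 difference of -0.20 (SE 0.29). Jchain, which joins IgA and IgM into polymers, was at 1.70, 2.55 and 0.536 TPM in the controls and 1.55, 2.67 and 0.374 TPM in the Alb-Cre+ mice. Within each genotype this was the order seen for Igha. Of 10 tested plasma cell and secretion genes, 5 were higher in females and 0 lower at an unadjusted p under 0.05, where 25.6% of all genes were higher, or 13.2% after median of ratios. Sdc1, Xbp1 and Fkbp11 are also made by hepatocytes and were at 106 to 132, 76.4 to 199.5 and 12.1 to 16.0 TPM, so they dominate the summed level of that list. Derl3, another gene of that list, was at 0.977, 0.590 and 0.822 TPM in the controls and 5.62, 6.25 and 14.4 TPM in the Alb-Cre+ mice. Its adjusted p was 0.456 from limma. Its genotypes did not overlap, with Alb-Cre+ higher, an order held by 2.18% of all genes tested and 0 of 11 constant genes. The reverse order was held by 2.71% of all genes and also 0 of 11, so the constant genes lay near these shares. The recombinase genes Rag1 and Rag2 did not exceed 0.0196 TPM, and Igll1 was listed at 0 in every liver. Dntt, which adds bases where segments are joined, was at 1.65, 0.997 and 0.529 TPM in the controls and 0.159, 0.279 and 0.0750 TPM in the Alb-Cre+ mice. Its genotypes did not overlap either, with Alb-Cre+ lower, as in 2.71% of all genes tested. Dntt was not called (log2 difference -2.05, SE 0.49, unadjusted p = 0.00397, limma). Among antibody receptors, Pigr, which carries polymeric IgA across epithelia, was at 269 to 360 TPM with no higher level in females. Both females lay above all males in 5 of 10 antibody receptor genes, beside 36.6% of all genes tested. These were the macrophage receptors Fcgr1, Fcgr3, Fcgr4 and Fcer1g, and Fcgr2b. Pigr, Fcgrt, Fcmr, Fcamr and Trim21 did not have that order.

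Compared with 10634 other genes averaging 1 TPM or more, the 5 whose log2(TPM + 0.1) followed Igkc most closely over the 6 livers were Ticam1, Cct3, Mbip, Maf and Rpl27, with Pearson correlations of 0.997 to 0.998. None is an immunoglobulin gene, but only 7 members, Igkc among them, averaged 1 TPM or more and could enter. Absence from the first 5 thus does not show that other members failed to follow Igkc. The levels of these 5 genes ranged little, Cct3 from 59.0 to 76.5 TPM and Maf from 5.63 to 11.1 TPM. They thus shared the order of the livers with Igkc and not its size of change.

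Similar sequence limits how far single V segments can be read. Over the 157 V members, a median of 46.3% of the 31-base stretches of a segment's transcript occurred in another annotated gene, with at least 50% in 67 segments and none in 8. The median identity of the coding sequence to the nearest other member was 94.2%, and 61 segments had a member at least 95% identical. Ighv1-62-2 and Ighv1-71 were 99.7% identical. How reads from shared stretches were divided was not tested.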

How the data were processed

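Liver RNA of 6 mice was sequenced, and the authors deposited TPM (a level corrected for transcript length) for 116748 transcripts, 1 column per mouse, each summing to 1000000. The submitters' processing notes name STAR, RSEM, Salmon and DESeq2 with GRCm38. The deposited table of the authors' own comparison (fold changes, p-values) was not used. Versions are not given in the sources used here. TPM hold no read numbers, so depth per mouse is unknown and a count test could not be run.

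TPM were summed per symbol; 163 transcripts without a symbol were left out. Members and lists were chosen with earlier results of these data known. Symbols averaging 0.1 TPM or more entered a fit of log2(TPM + 0.1) by limma, version 3.58.1, run under R 4.3.3 (empirical Bayes with a trend, Benjamini-Hochberg, threshold 0.01). The female against male and replicate 3 against replicate 1 comparisons were added after seeing the data. Same-numbered mice of the 2 genotypes deviated together (across 14189 genes, r = 0.367, 0.588 and 0.370; other pairs -0.44 to 0.17), so a replicate block was tried. Named were all constant genes, the first 3 V segments per class and liver, the 5 members with the smallest p in each direction, fixed marker genes and the 5 genes most like Igkc; other V segments were named after their values were seen. All 238 member transcripts were found in GENCODE M21, 0 of them with the same version number, and sequences and positions come from it; identity was aligned with Biopython 1.88. Some marker genes are not reported here.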

Additional observations from a re-analysis of the deposited data

How the results depend on the processing

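No immunoglobulin gene was called between the genotypes under any of the 14 alternatives (pseudocounts of 1 and 0.01 TPM, no filter, a mean of at least 1 TPM, median of ratios, no trend, the replicate block, sex as a covariate, each mouse left out). The number of members with an unadjusted p under 0.05, 5 as reported, was 0 with a mean of at least 1 TPM (7 members tested), 8 after median of ratios, 15 with the replicate block, 12 with sex as a covariate and 5 to 14 with each mouse left out. The shares of all genes higher and lower moved as well. They were 0.752% and 0.921% with a mean of at least 1 TPM and 1.04% and 1.25% after median of ratios. With the block they were 2.28% and 2.42%, and with sex as a covariate 1.83% and 1.91%. With each mouse left out, 0.428% to 1.28% were higher and 0.596% to 2.83% lower. Pairing same-numbered mice by the block changed no other call. Over all genes, 0 to 1 were called with each mouse left out, the 1 without Alb-Cre+ replicate 1. With each mouse left out, log2 differences ranged from -0.93 to 0.54 for Igkc, -0.49 to 0.39 for Ighm, -0.86 to 0.73 for Igha, -0.13 to 0.36 for Ighd, -0.46 to 1.20 for Ighg1, -0.69 to 0.45 for Ighg2b, -0.47 to 0.35 for Ighg2c, -0.016 to 1.10 for Ighg3, -1.50 to 0.79 for Iglc1, -0.71 to 0.12 for Iglc2 and -1.07 to 0.15 for Iglc3. Ighg1 reversed to -0.029 with a pseudocount of 1 TPM. The median SD within genotype fell to 0.330 with a pseudocount of 1 TPM and was 1.12 to 1.34 with each mouse left out. The number of members was 165 at 0.1 TPM or more and 32 at 1 TPM or more in any mouse. Among segments reaching 1 TPM in some mouse, where fewer segments share the total, the share of the leading Ighv segment was 38.2%, 22.6% and 67.5% in the controls and 26.6%, 26.6% and 100% in the Alb-Cre+ mice, and that of the leading Igkv segment 30.8%, 13.7% and 51.6% and 17.0%, 16.2% and 40.0%.

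Between the sexes, an added comparison, 73 genes were called as reported, 28 with no filter, 31 with no trend and 3 to 51 with each mouse left out. Of the members, 1 was called as reported, 3 with no filter, 3 with no trend, 2 with a pseudocount of 1 TPM, 0 with 0.01 TPM, 0 with a mean of at least 1 TPM and 0 to 0 with each mouse left out. Members higher in females at an unadjusted p under 0.05 numbered 34, 4 with a mean of at least 1 TPM and 15 to 45 with each mouse left out, fewest without the female control. Of all genes, 25.6% were higher as reported, 25.5% with a mean of at least 1 TPM and 11.1% to 23.8% with each mouse left out. The causes of these shifts were not tested. Unknown depth limits what can be said of V segments near 0.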
